A study of Mus musculus with 8 samples.

Results

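The 9 genes described here encode transcription factors that set the identity of foregut and gut epithelium, namely Sox2, Gata4, Gata6, Foxa1, Foxa2, Foxa3, Hnf4a, Cdx2 and Pdx1. They were taken by gene symbol from a table of 23361 genes, in which all 9 were found. The RNA came from 5 cancers of the gastric squamous-columnar junction (SCJ), the line at which the squamous lining of the mouse forestomach meets glandular stomach epithelium, and from the SCJ of 3 control stomachs. The cancers arose after tamoxifen treatment in mice with the Ai9 reporter, conditional loxP/loxP alleles of both Rb1 and Trp53, and the Lgr5-eGFP-Ires-CreERT2 knock-in. They carry the genotype Trp53-/-Rb1-/- in the labels and were collected late after induction within borders set by tdTomato, the protein that Ai9 encodes. The controls were stomachs of wild-type mice of matching age. In this model CreERT2 is made from the Lgr5 locus, so recombination was directed to Lgr5+ cells and their descendants. Recombination in other cells of a dissected mass was not measured here. The sources do not say that each cancer came from a different mouse, so p-values measure the spread between these samples.

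The factors act in overlapping regions along the gut tube. SOX2, an HMG-box factor, marks esophagus, forestomach and stomach and is low in the intestine, where CDX2, a caudal homeobox factor, directs the intestinal programme. GATA4 and GATA6 are zinc-finger factors of glandular gastric and intestinal epithelium, the FOXA proteins are forkhead pioneer factors that open chromatin in endoderm, HNF4A is a nuclear receptor of liver, gut and gastric epithelium, and PDX1 is a homeobox factor of pancreas, duodenum and gastric antrum.

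Levels are FPKM, fragment counts scaled by transcript length and by the size of the library, as rounded to whole numbers in the deposited table, so levels of different genes are compared per length. Log2 fold changes are the cancer mean minus the control mean of log2(FPKM + 1) and understate the change of low genes. The sum of FPKM ranged from 403569 to 573858 over the cancers and from 887141 to 992550 over the controls, and the 10 most abundant genes held 11.1% to 19.6% of it in the cancers and 39.3% to 44.3% in the controls. Of the targeted genes, FPKM of Rb1 was 4 to 6 in the cancers and 9 to 10 in the controls (log2 fold change −0.90 ± 0.16 SE, adjusted p = 0.0059 by limma with Benjamini-Hochberg adjustment), whereas FPKM of Trp53 was 12 to 30 and 16 to 19 (−0.08, adjusted p = 0.87 by limma), so Trp53 did not separate the groups. Neuroendocrine markers (9 of 9 higher by limma) summed to FPKM of 8218 to 18463 in the cancers and 127 to 191 in the controls. The 12 squamous markers (2 lower, 10 not called) had sums of 1, 28, 498, 2082 and 844 for cancers 1 to 5 against 2849, 4817 and 4312 for controls 1 to 3. The 9 gastric glandular markers (1 lower, 8 not called) had sums of 522, 59944, 4495, 37312 and 12750 for the same cancers against 173234, 108786 and 149419. Cancer 1 thus had the lowest sum of both lists, with squamous markers near 0, and the squamous sum of cancer 2 (28) was also far below every control. General epithelial markers (3 of 8 higher, 2 lower) summed to 911 to 4963 in the cancers and 5833 to 8033 in the controls, and leukocyte markers (1 of 7 higher) to 36 to 382 and 19 to 42, highest in cancer 1. Smooth muscle markers (0 of 6 called) had sums of 43, 1692, 549, 381 and 72 for cancers 1 to 5 and of at most 549 for the controls, so cancer 2 was above every control; cancers 1 and 5 were below every control. Fibroblast markers (0 of 6 called) summed to 62 to 329 and 72 to 133, and endothelial markers (2 of 4 higher) to 12 to 38 and 6 to 9, without overlap. In bulk tissue, fewer cells of a type and less RNA per cell cannot be told apart, and the part of these differences in the values below was not tested except where given.

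Across the 14357 genes tested by limma (those reaching an FPKM of 1 in 3 or more libraries), 2326 (16.2%) were higher and 2622 (18.3%) lower in the cancers at an adjusted p below 0.05. Of the 9 factors, 8 were tested, 4 were lower and 0 higher. The 4 that fell were Gata4, Gata6, Foxa3 and Hnf4a, and in each of them every cancer lay below every control, as it did in 19.8% of the genes tested. The median log2 fold change of the 8 tested factors was −1.06, beside −0.04 over all genes tested. Cdx2 did not pass the filter, and is described by its values.

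**Figure D1:**
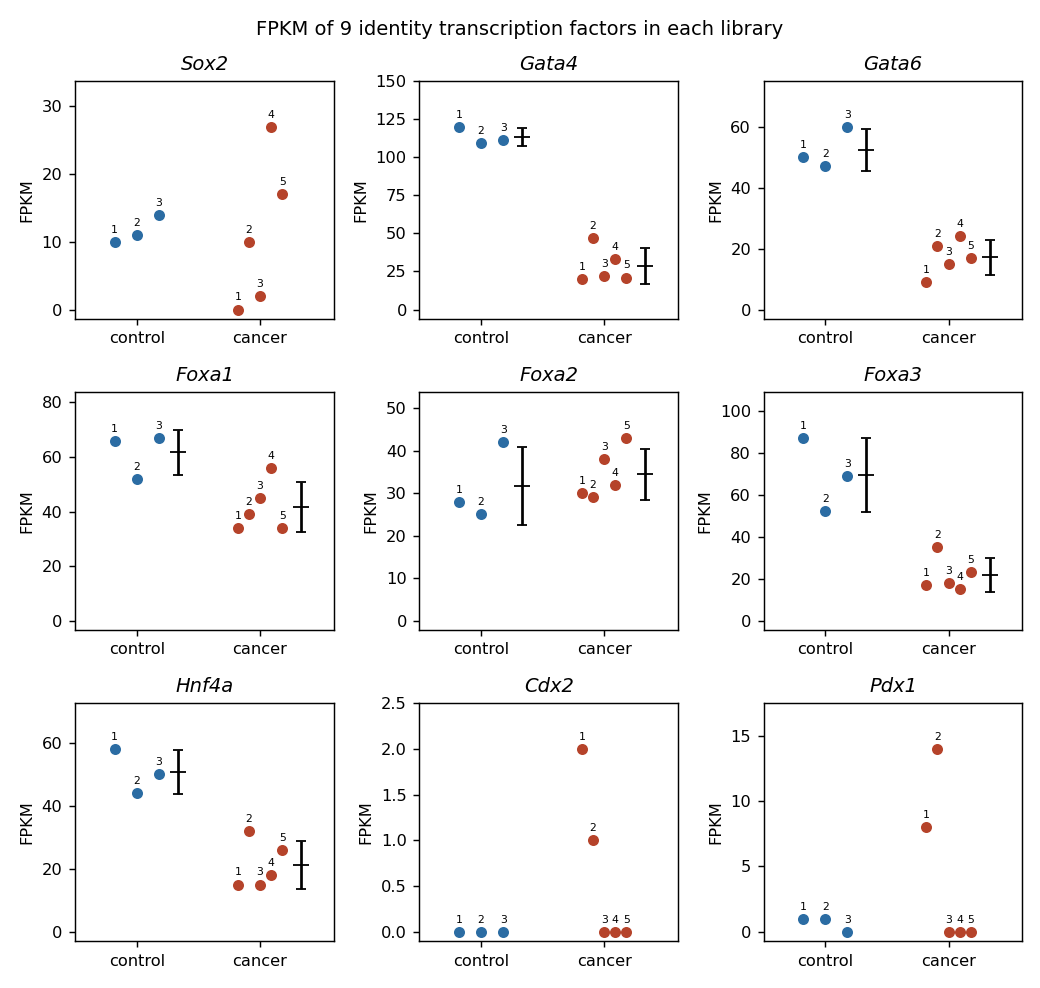
FPKM (vertical axis, linear) of each of the 9 factors in the 3 control (blue) and 5 cancer (red) libraries, each point labelled with its library number; the black bar gives the mean ± SD where no library is at 0. Gata4, Gata6, Foxa3 and Hnf4a show no overlap between groups, Foxa1, Foxa2 and Sox2 overlap, and Sox2, Pdx1 and Cdx2 are at 0 in some cancers and above 0 in others.

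Among the zinc-finger factors, Gata4 (chr14:63198914-63271712; gene spans are those of RefSeq, GRCm38.p6) had the largest fall of the 9. Gata4 FPKM was 20, 47, 22, 33 and 21 in cancers 1 to 5, against 120, 109 and 111 in controls 1 to 3. The groups were far apart, since the highest cancer, cancer 2, did not reach the lowest control. The cancer mean of 28.6 ± 11.5 FPKM (SD, n = 5) compares with a control mean of 113 ± 5.86 (SD, n = 3), and the log2 fold change was −2.03 (SE 0.29, 95% confidence interval −2.69 to −1.36, adjusted p = 0.0029 by limma), a 4.07-fold lower level on the log2(FPKM + 1) scale. The exact permutation test (two-sided, 56 arrangements) gave p = 0.018, the smallest possible with 5 against 3 libraries. Of all genes tested, 4.14% had a lower log2 fold change than Gata4. Under the other scalings described below, the value was −1.08 with TPM (adjusted p = 0.0037 by limma) and −0.74 with centring on epithelial genes, where the call was lost (adjusted p = 0.41).

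Gata6 (chr18:11052510-11085636), which is expressed with Gata4 through much of the gut endoderm, fell as well. FPKM of Gata6 was 9, 21, 15, 24 and 17 over the cancers against 50, 47 and 60 over the controls, again with no overlap and with cancer 1 lowest. Its means were 17.2 ± 5.76 (SD, n = 5) and 52.3 ± 6.81 (SD, n = 3), and the log2 fold change was −1.61 (SE 0.29, interval −2.28 to −0.94, adjusted p = 0.0065 by limma; exact permutation p = 0.018). With TPM it was −0.68 (adjusted p = 0.031) and with centring on epithelial genes −0.33, no longer called (adjusted p = 0.73 by limma). Gata5, the remaining gut GATA factor, had FPKM of 8, 18, 13, 15 and 19 over the cancers against 26, 19 and 22 over the controls. Cancer 5 equalled control 2, and the log2 fold change of −0.62 did not pass the threshold (adjusted p = 0.11 by limma). Zfpm1, which encodes FOG1, a zinc-finger cofactor that binds GATA proteins, had FPKM of 15, 30, 15, 16 and 19 against 53, 34 and 44 and fell by 1.19 on the log2 scale (adjusted p = 0.013 by limma). Gata3, a factor of squamous epithelium and lymphocytes, was at 0 in every cancer but cancer 4 and at 1 in every control, and was called lower (−0.80, adjusted p = 0.045 by limma), although it overlapped between groups at 1 unit of the rounded scale.

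The summed FPKM of Gata4, Gata5 and Gata6 lay between 37 and 86 in the cancers and between 175 and 196 in the controls. Gata4 made up 47.1% ± 7.45 (SD, n = 5) of that sum in the cancers and 60.3% ± 2.51 (SD, n = 3) in the controls. The Gata4 share ran from 36.8% to 54.7% and from 57.5% to 62.3%, without overlap. Gata6 held 28.4% ± 3.92 in the cancers and 27.8% ± 2.91 in the controls. Gata5 held 10.9% to 13.3% of the sum in the controls and 20.8% to 33.3% in the cancers, with no overlap. The log2 ratio of Gata4 over Gata6 within a library, taken on FPKM + 1 and so little affected by the scaling between libraries, was 0.69 ± 0.38 (SD, n = 5) in the cancers and 1.11 ± 0.20 (SD, n = 3) in the controls. The difference of −0.42 was within the spread (exact permutation test, two-sided, p = 0.143; adjusted p = 0.14 over the 3 pairs of factors compared), so a larger fall of Gata4 than of Gata6 was not shown.

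Of the forkhead factors, Foxa3 was called lower and Foxa1 and Foxa2 were not. Foxa3 and Foxa1 were each compared with Foxa2 after the values, and Foxa3 was not tested against Foxa1. Foxa3 (chr7:19013283-19023539), the FOXA member best known from liver and gut, had FPKM of 17, 35, 18, 15 and 23 over the cancers against 87, 52 and 69 over the controls. Every cancer was below every control, and cancer 2 came closest. The means were 21.6 ± 8.05 (SD, n = 5) and 69.3 ± 17.5 (SD, n = 3), and the log2 fold change was −1.67 (SE 0.29, interval −2.35 to −0.99, adjusted p = 0.0059 by limma; exact permutation p = 0.018), that is 3.18-fold lower. With TPM it was −0.73 (adjusted p = 0.049) and with the epithelial centring −0.39, no longer called (adjusted p = 0.68 by limma).

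Foxa1 (chr12:57540628-57548029), which shares its DNA-binding domain and many targets with Foxa2, had FPKM of 34, 39, 45, 56 and 34 over the cancers against 66, 52 and 67 over the controls. Cancer 4 exceeded control 2, so the groups overlapped. The means were 41.6 ± 9.24 (SD, n = 5) and 61.7 ± 8.39 (SD, n = 3), and the log2 fold change of −0.57 (SE 0.20, interval −1.03 to −0.12) narrowly missed the threshold (adjusted p = 0.055 by limma; exact permutation p = 0.054). Without cancer 4 it passed (−0.68, adjusted p = 0.019 by limma). The sign turned with TPM (0.39) and with the epithelial centring (0.71), neither past the threshold (adjusted p = 0.099 and 0.43 by limma).

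Foxa2 (chr2:148042877-148046969), required for the formation of foregut endoderm, had FPKM of 30, 29, 38, 32 and 43 over the cancers against 28, 25 and 42 over the controls. The ranges nearly coincided. Its means were 34.4 ± 5.94 (SD, n = 5) and 31.7 ± 9.07 (SD, n = 3), and the log2 fold change was 0.14 (SE 0.21, interval −0.35 to 0.62, adjusted p = 0.63 by limma; exact permutation p = 0.50), an interval that does not include a change of the size seen for Foxa3. With TPM, described below, Foxa2 was called higher (1.09, adjusted p = 0.0083 by limma).

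The order of the FOXA genes by level differed between the groups. By mean FPKM the controls ran Foxa3, Foxa1, Foxa2 and the cancers Foxa1, Foxa2, Foxa3. Foxa2 took 35.4% ± 5.84 (SD, n = 5; 28.2% to 43.0%) of the summed FOXA FPKM in the cancers and 19.5% ± 4.06 (SD, n = 3; 15.5% to 23.6%) in the controls. For Foxa3 the shares were 22.1% ± 7.39 (14.6% to 34.0%) and 42.4% ± 4.98 (38.8% to 48.1%), without overlap, and for Foxa1 42.6% ± 7.73 and 38.1% ± 1.97. The log2 ratio of Foxa3 over Foxa2 was −0.78, 0.26, −1.04, −1.04 and −0.87 in cancers 1 to 5 and 1.60, 1.03 and 0.70 in controls 1 to 3. All cancers were thus below all controls, and cancer 2 alone was above 0. The difference in means was −1.81 (exact permutation p = 0.018, the smallest possible; adjusted p = 0.054 over the 3 pairs, just above the threshold of 0.05). For Foxa1 over Foxa2 the ratio was 0.26 ± 0.41 (SD, n = 5) in the cancers and 0.97 ± 0.28 (SD, n = 3) in the controls, a difference of −0.71 (exact permutation p = 0.054, adjusted p = 0.080 over the 3 pairs).

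**Figure D2:**
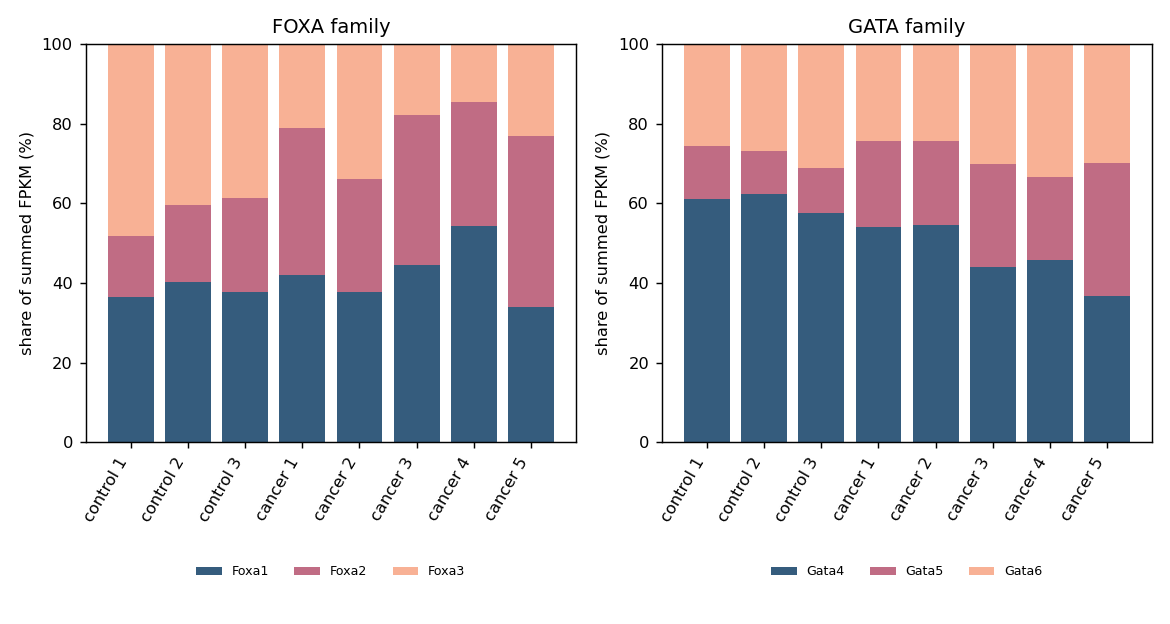
Share (%) of the summed FPKM of Foxa1, Foxa2 and Foxa3 (left) and of Gata4, Gata5 and Gata6 (right) in each library, stacked to 100. The Foxa3 band is wider in the 3 controls (38.8% to 48.1%) than in the 5 cancers (14.6% to 34.0%), and the Gata5 band is wider in the cancers (20.8% to 33.3%) than in the controls (10.9% to 13.3%).

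The sequences before the starts of the FOXA genes are given because the calls of these paralogs differed, and those of Hnf4a because it has separate starts. They come from RefSeq (GRCm38.p6), which listed windows for 7 of the 9 genes, 10 windows in all, each from 250 bases before to 50 after a start; Gata4 and Gata6 had none. Only bases outside annotated exons are shown, 5′ to 3′ on the gene's strand, and capitals mark exact matches to the letters searched on both strands. Of 32851 such windows of all genes, 3.65% held the forkhead letters TGTTTAC and 3.04% their variant TATTTAC. The letters AGATAA, bound by zinc-finger factors such as Gata4, were held by 11.2%, and the HNF4 letters CAAAGTC by 4.44%. The CDX letters TTTATNG were held by 10.9%, the SOX letters AACAAAG by 5.85% and the PDX1 letters CTAATTA by 2.0%. The core promoter element TATAAA was held by 13.6%.
Foxa1, chr12:57546122-57546361, minus strand: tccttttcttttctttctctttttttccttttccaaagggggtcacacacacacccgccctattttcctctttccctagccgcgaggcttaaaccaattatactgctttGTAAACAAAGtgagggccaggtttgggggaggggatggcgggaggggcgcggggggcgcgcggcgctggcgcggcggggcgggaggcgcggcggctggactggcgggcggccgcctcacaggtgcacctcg
Foxa2, first of 3 windows, chr2:148046970-148047219, minus strand: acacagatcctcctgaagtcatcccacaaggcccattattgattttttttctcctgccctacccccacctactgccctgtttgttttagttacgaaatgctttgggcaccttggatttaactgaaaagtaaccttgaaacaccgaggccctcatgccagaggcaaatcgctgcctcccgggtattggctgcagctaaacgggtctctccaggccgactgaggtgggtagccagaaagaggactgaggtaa
Foxa3, chr7:19023540-19023789, minus strand: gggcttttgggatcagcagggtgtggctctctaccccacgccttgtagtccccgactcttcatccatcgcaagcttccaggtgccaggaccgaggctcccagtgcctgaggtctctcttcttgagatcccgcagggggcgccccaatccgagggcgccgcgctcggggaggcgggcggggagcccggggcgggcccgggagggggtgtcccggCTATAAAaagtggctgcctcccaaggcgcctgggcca
Hnf4a, upstream start, chr2:163506607-163506807, plus strand: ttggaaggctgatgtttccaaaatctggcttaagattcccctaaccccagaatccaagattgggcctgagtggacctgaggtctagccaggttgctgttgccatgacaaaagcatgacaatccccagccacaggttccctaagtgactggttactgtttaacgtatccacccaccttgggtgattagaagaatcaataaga
Hnf4a, downstream start, chr2:163546943-163547154, plus strand: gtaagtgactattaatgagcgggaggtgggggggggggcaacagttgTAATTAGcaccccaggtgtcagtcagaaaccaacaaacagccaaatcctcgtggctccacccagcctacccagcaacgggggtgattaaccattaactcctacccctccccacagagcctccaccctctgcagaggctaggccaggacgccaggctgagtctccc

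The capitals in the Foxa1 stretch hold the forkhead letters on the opposite strand, beginning 141 bases before the start, and the SOX letters, which overlap them and begin 138 bases before it. In the Foxa3 stretch they hold the CDX letters on the opposite strand, beginning 37 bases before the start, overlapped by TATAAA. The first Foxa2 window held no match, nor did its second, whereas the third held AGATAA and, on the opposite strand, TATAAA. The downstream Hnf4a window held the PDX1 letters on the opposite strand, 165 bases before the start, and the upstream window AGATAA, 52 bases before the start and at an exon's edge, so not shown. The Cdx2 window held the forkhead letters, and those of Sox2 and Pdx1 held no match. A match is a description of these letters and does not show that a factor binds.

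Hnf4a (chr2:163506811-163572907), the nuclear receptor of the set, had FPKM of 15, 32, 15, 18 and 26 over the cancers against 58, 44 and 50 over the controls. No cancer reached a control, and cancer 2 was again the nearest. The means were 21.2 ± 7.53 (SD, n = 5) and 50.7 ± 7.02 (SD, n = 3), and the log2 fold change was −1.27 (SE 0.27, interval −1.90 to −0.64, adjusted p = 0.012 by limma; exact permutation p = 0.036), that is 2.42-fold lower. The call was lost without control 1 (adjusted p = 0.054 by limma) and with TPM (−0.33, adjusted p = 0.26), and centring on epithelial genes, described below, gave 0.011 (adjusted p = 0.99). The table gives Hnf4a a span that begins at chr2:163547188, the downstream of the starts shown above, and a single value, so transcripts from the upstream start, the one known from stomach and pancreas, were not separated from the others. Its paralog Hnf4g was near the bottom of the scale, with FPKM of 1 to 2 in the cancers and 1 to 3 in the controls (−0.18, adjusted p = 0.63 by limma).

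Sox2 (chr3:34649995-34652461) ranged widely among the cancers. Sox2 FPKM was 0, 10, 2, 27 and 17 in cancers 1 to 5, against 10, 11 and 14 in controls 1 to 3. Cancers 1 and 3 lay below every control, cancers 4 and 5 above every control, and cancer 2 at the lowest control. The log2 fold change of −0.85 had a standard error of 1.05 and an interval of −3.27 to 1.58 (adjusted p = 0.55 by limma; exact permutation p = 0.589), so neither a rise nor a fall was shown. The span that the table gives to Sox2, chr3:34560381-34677993, is shared with the long non-coding RNA Sox2ot, which runs over it on the same strand; Sox2ot was listed at 0 in all libraries but cancer 4, where it was 1. Sox21, a related factor of stomach and esophagus, had FPKM of 0, 20, 2, 7 and 6 over the cancers against 23, 19 and 28 over the controls (−2.23, adjusted p = 0.081 by limma). In cancer 1, where Sox2 was listed at 0, Krt5, a keratin of squamous basal cells, Muc5ac, the mucin of gastric pit cells, and Foxq1, a forkhead factor of the same lineage, were at 0 as well. In cancer 4, where Sox2 was highest, Krt5 was 574 against 128 to 203 in the controls. Krt14, Krt6a, Krt15, Trp63 and Dsg3 were also above every control there. Krt13, Krt4, Lor, Sprr3 and Calml3 were below every control, and Ivl was within their range. The sum of the 12 squamous markers (2082) was below every control. In cancer 5, where Sox2 was also above every control, Krt5 was 57 and that sum 844. Cancer 2, with Sox2 at the lowest control, had Krt5 at 1 and a sum of 28. Cancer 3, with Sox2 at 2, had Krt5 at 85 and a sum of 498. Foxa1 (34), Foxa2 (30), Gata4 (20) and Hnf4a (15) were present in cancer 1 all the same.

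**Figure D3:**
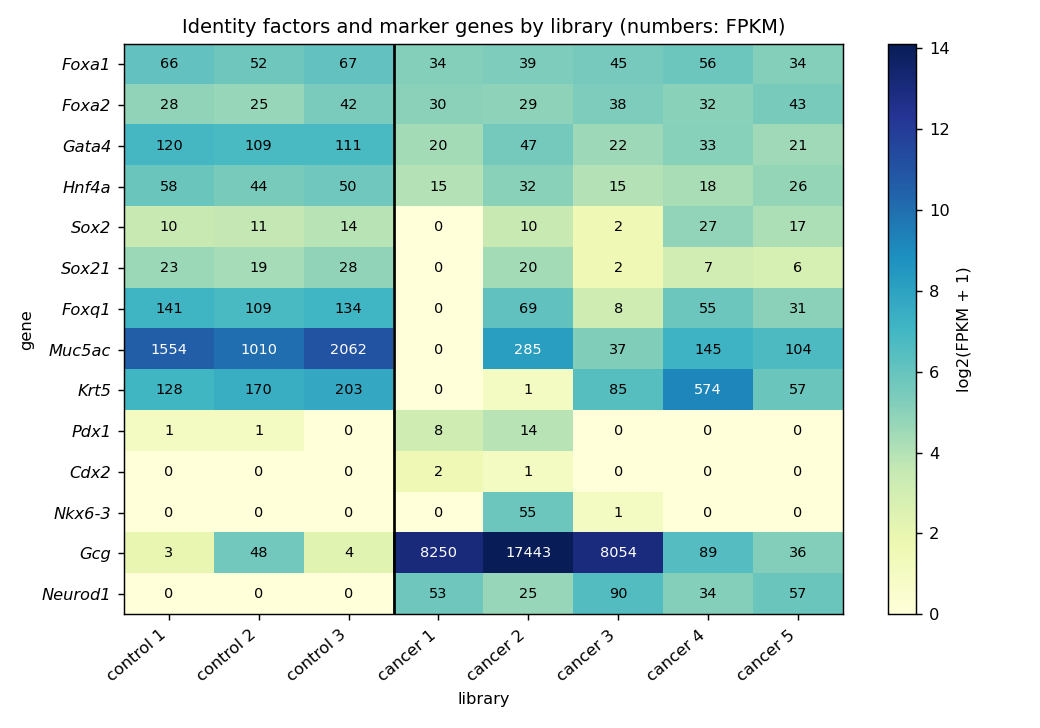
Heat map of log2(FPKM + 1), with FPKM printed in each cell, for 14 genes (rows) in 3 controls and 5 cancers (columns). Foxa1 and Foxa2 are present in every library, Sox2, Sox21, Foxq1, Muc5ac and Krt5 are all 0 in cancer 1, and Pdx1 and Cdx2 are both above 0 only in cancers 1 and 2.

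Pdx1 (chr5:147270097-147275848), which marks the pancreatic and duodenal domain of the endoderm, had FPKM of 8, 14, 0, 0 and 0 over the cancers against 1, 1 and 0 over the controls. It was thus present above the control level in cancers 1 and 2 and listed at 0 in the other 3. Over the 5 cancers the log2 fold change was 0.75 (SE 1.05, interval −1.69 to 3.19, adjusted p = 0.60 by limma; exact permutation p = 0.643), so no difference between the groups was shown. The span given to Pdx1 also covers an annotated antisense transcript, and the libraries were directional, but the sources do not state how strand was counted.

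Cdx2 (chr5:147300900-147307249), which lies 25.1 kb from Pdx1, stood at 2, 1, 0, 0 and 0 FPKM in cancers 1 to 5 and at 0 in all 3 controls. Cancers 1 and 2, the only cancers above 0 for Pdx1, were also the only ones above 0 for Cdx2, whose levels of 1 and 2 are the lowest steps of the rounded scale. No fold is given against controls at 0; the exact permutation p of the log2 difference was 0.464. Its paralogs Cdx1 and Cdx4 were at 0 in every library, and so were Gata1, Sox1, Foxb1 and Foxd1 of the 12 paralogs examined, of which 5 were tested, 0 rose and 1 (Gata3) fell, beside 16.2% and 18.3% of all genes tested, with a median log2 fold change of −0.62.

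Of 25 genes typical of intestinal epithelium, 16 were tested, 0 rose and 1 fell (all genes tested: 16.2% and 18.3%), with a median log2 fold change of −0.30. The one that fell was Olfm4, a glycoprotein of intestinal crypts, with FPKM of 0 to 1 in the cancers and 2 in every control (−0.78, adjusted p = 0.048 by limma). Cdh17, Lct, Sis, Reg4 and Slc26a3, among them the intestinal cadherin and brush-border disaccharidases, were at 0 in all 8 libraries, and Muc2, the goblet cell mucin, was 1 in cancer 1 and 0 elsewhere. Vil1, the brush-border villin, had FPKM of 12, 52, 17, 15 and 24 over the cancers against 41, 18 and 13 over the controls, with ranges that overlapped (−0.034, adjusted p = 0.96 by limma).

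Of 14 pancreatic lineage factors listed beside Pdx1, 8 were tested, 6 rose and 1 fell, where 16.2% and 18.3% of all genes tested did so, with a median of 4.34 on the log2(FPKM + 1) scale, a value that depends on the pseudocount because several members were at 0 in the controls. Pax6 (31 to 121), Neurod1 (25 to 90), Rfx6 (9 to 54) and Nkx2-2 (12 to 33), factors of endocrine cells of pancreas and gut, were present in every cancer. They were listed at 0 in every control, and are described by these values. Insm1, a zinc-finger factor of neuroendocrine cells, went from 1 in every control to 24 to 59 (4.28, adjusted p = 0.00054 by limma). Ptf1a, the factor of acinar cells, was 0 to 1 in the cancers and 1 to 2 in the controls and fell (−0.99, adjusted p = 0.032 by limma). Nkx6-1, Pax4, Mafa and Nr5a2 were at 0 throughout. Of the 6 islet markers, Ins1, Nkx6-1 and Mafa were at 0 in all libraries, and 1, the glucagon gene Gcg, was called higher, with FPKM of 8250, 17443, 8054, 89 and 36 over the cancers against 3, 48 and 4 over the controls. Cancers 1 and 2, the ones with Pdx1 above 0, also had the highest Gcg, but cancer 3 had nearly as much Gcg as cancer 1 with Pdx1 listed at 0.

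Among 17 hepatic and foregut cofactors, 14 were tested, 1 rose and 3 fell, again beside 16.2% and 18.3% of all genes, with a median log2 fold change of 0.23. The gene that rose was Prox1, a homeobox factor of liver bud and endocrine cells. It stood at 5, 1, 3, 2 and 11 FPKM in cancers 1 to 5 and at 0 in every control. Prox1 passed the filter only through the cancers and is described by these values. Besides Zfpm1, the ones that fell were Nr2f2, an orphan nuclear receptor (7 to 16 against 25 to 34; −1.35, adjusted p = 0.0062 by limma), and Cebpa, a leucine-zipper factor (10 to 17 against 18 to 25; −0.79, adjusted p = 0.020 by limma).

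Of 22 regional and lineage factors of the stomach, 19 were tested, 2 rose and 4 fell, beside 16.2% and 18.3% of all genes tested, with a median of −1.24. Klf4, a zinc-finger factor of differentiated epithelium, had FPKM of 15 to 93 in the cancers and 209 to 318 in the controls (−2.64, adjusted p = 0.0097 by limma). Esrrg, a nuclear receptor of acid-secreting parietal cells, had 0 to 29 and 50 to 56 (−3.03, adjusted p = 0.042 by limma), its paralog Esrrb 0 to 1 and 2 to 4 (−1.88, adjusted p = 0.0043 by limma), and Bhlha15, which encodes MIST1 of chief cells, 2 to 9 and 8 to 26 (−1.55, adjusted p = 0.046 by limma). Isl1, a LIM homeobox factor of endocrine cells and neurons, rose, with 40, 18, 32, 11 and 8 against 3, 4 and 5 (1.98, adjusted p = 0.022 by limma). The other gene called higher was Sox17, at 0 to 1 against 0. Sox17 overlapped between groups, differed by 1 unit of the rounded scale and passed the filter only through the cancers. Barx1, the mesenchymal homeobox gene of the stomach, and Sox9 were not called (adjusted p = 0.85 and 0.42 by limma). Nkx6-3, a homeobox gene of the antrum, was 55 in cancer 2, 1 in cancer 3 and 0 elsewhere.

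The last lists hold genes that these factors are known to serve in stomach and liver. Of 15 gastric glandular genes, all tested, 0 rose, 3 fell (beside 18.3% of all genes tested) and 12 were not called, with a median of −3.56 that rests on large differences between cancers. Cldn18, the gastric tight-junction claudin, had FPKM of 86 to 293 in the cancers and 521 to 742 in the controls (−2.10, adjusted p = 0.0075 by limma), Gkn1, a gastrokine of surface cells, 491 to 12040 and 33163 to 41821 (−3.81, adjusted p = 0.034 by limma), and Shh, the hedgehog ligand, 0 to 16 and 43 to 74 (−3.56, adjusted p = 0.024 by limma). Of 18 liver genes, 11 were tested, 3 rose (beside 16.2% of all genes tested), 1 fell and 7 were not called, with a median of 1.92. Ahsg, which encodes the plasma glycoprotein fetuin-A, had 2386, 647, 812, 492 and 2886 in the cancers and 1 to 2 in the controls (8.94, adjusted p = 0.00039 by limma), Ttr, the thyroxine carrier, 455 to 2011 and 66 to 94 (3.52, adjusted p = 0.0021 by limma), and Trf, transferrin, 17 to 150 and 7 to 12 (1.92, adjusted p = 0.048 by limma). Apob, the lipoprotein scaffold, fell from 13 to 19 to 0 to 14 (−2.46, adjusted p = 0.042 by limma). The 9 hepatocyte markers, of which 4 were tested, 1 (Ttr) was higher and Cyp7a1 was at 0 throughout, summed to 686 to 2049 in the cancers and 69 to 96 in the controls. In cancers 1 to 4 Ttr alone gave 2011, 890, 1073 and 668 of sums of 2049, 911, 1138 and 686, and Fga, Fgg and Apoh were at 0 there. Alb (266), Fga (65), Fgg (93), Apoh (21) and Hpx (385) were highest in cancer 5. In that cancer Foxa1 was 34, as in cancer 1, Foxa2 43, the highest of the 8 libraries, Foxa3 23 and Hnf4a 26.

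Genes with the most similar pattern over the 8 libraries were sought among those with a mean FPKM of at least 5 (9126 genes for Pdx1 and 9125 for each of the other tested factors; Cdx2 was not searched), by the root mean square difference of centred log2 values. Gata4 was nearest to Cldn18 (0.19) and Sypl (0.19), Gata6 to Cystm1 (0.15) and Sdhc (0.15), Foxa3 to Asap2 (0.13) and Pcdh1 (0.17), and Hnf4a to Inpp5a (0.088) and Vasp (0.095). Foxa1 was nearest to Arf4 (0.11) and Tmem55a (0.12), and Foxa2 to Rusc1 (0.052) and Fbrsl1 (0.10). The nearest to Sox2 were Otop3 (0.45) and Hpn (0.50), and to Pdx1 Prss53 (0.63) and Tac1 (0.66). This difference grows with the spread of a gene over the libraries, so it does not rank the factors by how closely another gene followed them.

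Ordered by mean FPKM, the controls ran Gata4, Foxa3, Foxa1, Gata6, Hnf4a, Foxa2, Sox2, Pdx1, Cdx2. The cancers ran Foxa1, Foxa2, Gata4, Foxa3, Hnf4a, Gata6, Sox2, Pdx1, Cdx2. In the controls Gata4 (109 to 120) lay above all others. The values of Foxa3 (52 to 87), Foxa1 (52 to 67), Gata6 (47 to 60) and Hnf4a (44 to 58) overlapped from each to the next. Within each control, however, Foxa3 and Foxa1 were both above Gata6 and Hnf4a. Foxa3 and Foxa1 were equal in control 2, and Gata6 was below Hnf4a in control 1 and above it in controls 2 and 3. Foxa2 (25 to 42) and then Sox2 (10 to 14) lay below without overlap. In the cancers each gene from Foxa1 (34 to 56) down to Sox2 (0 to 27) overlapped the next, so no neighbours were separated. Placed among all tested genes by mean level, Gata4 moved from above 94.2% of them in the controls to above 83.4% in the cancers, Foxa3 from 90.8% to 77.6%, Gata6 from 87.7% to 72.2% and Hnf4a from 87.5% to 77.3%, while Foxa1 stayed at 89.6% and 88.5% and Foxa2 went from 80.8% to 86.0%.

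Because the FPKM sums differed between the groups, the changes were also computed under other scalings. Conversion to TPM, in which all libraries have an equal sum, moved the median of all genes to 0.81, and 7176 of the 14357 genes were then called higher and 528 (3.68%) lower, in place of 2326 and 2622. Gata4, Gata6 and Foxa3 were still lower, Hnf4a was not called, and Foxa2, called higher, was 0.28 above the median of all genes. After quantile normalization, with 13.2% called in each direction, the same 4 factors were lower (Gata4 −1.60, Gata6 −1.27, Foxa3 −1.29 and Hnf4a −0.91). When each library was centred on Epcam, Krt8, Krt18 and Krt19, whose mean log2(FPKM + 1) was 6.73 to 9.80 in the cancers and 9.71 to 10.1 in the controls, the median of all genes moved to 1.25, 15.3% were called higher and 1.06% lower, and 0 of the 8 factors were called by limma (1 of 8 at an unadjusted p below 0.05). Foxa2 was then at 1.42 (adjusted p = 0.15 by limma). Over these scalings, the replicate block, the filters, the pseudocount and the variance model, the adjusted p by limma ran from 0.0022 to 0.41 for Gata4, 0.0048 to 0.73 for Gata6, 0.0044 to 0.68 for Foxa3, 0.0091 to 0.99 for Hnf4a, 0.055 to 0.55 for Foxa1 and 0.0083 to 0.80 for Foxa2. Relative to the median of all genes, Gata4, Gata6, Foxa3, Hnf4a, Foxa1 and Sox2 lay below it and Foxa2 and Pdx1 above it with FPKM as deposited, TPM and quantile normalization. Centring shifts every gene of a library alike and leaves that distance as it was. The 4 genes used for centring were not steady themselves: Krt8 fell (−2.02, adjusted p = 0.045 by limma) and Epcam rose (1.17, adjusted p = 0.0092 by limma).

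**Figure D4:**
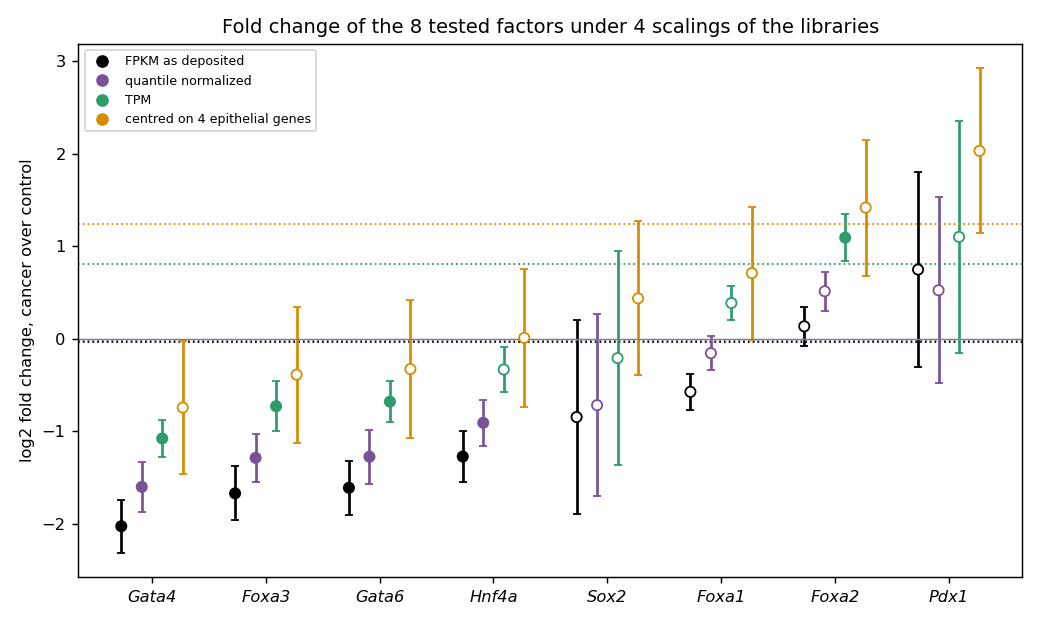
Log2 fold change (cancer over control) ± SE of the 8 tested factors under 4 scalings of the libraries, with filled points where the adjusted p is below 0.05 by limma and dotted lines at the median of all genes under each scaling. Gata4 runs from −2.03 with FPKM as deposited to −0.74 with centring on 4 epithelial genes, and Foxa2 from 0.14 to 1.42.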

How the data were processed

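Polyadenylated RNA was sequenced from 5 cancers and 3 controls. The authors trimmed reads with cutadapt 1.8 and obtained FPKM with Cuffnorm 2.2.1; the submitters' processing notes also name TopHat2 2.0.13 and mm10, and no source used here states the library normalization option. The deposited FPKM are whole numbers (100% of values), so they were treated as a score, not as read counts. Depth is unknown, so no counting intervals are given, and 0 means only listed at 0, since Pgc was 28832 in control 1 and 0 in controls 2 and 3. The 14357 genes that reached an FPKM of 1 in 3 or more libraries were compared by limma 3.58.1 under R 4.3.3, on the log2 scale after adding 1, using a trended prior variance, and p-values were adjusted by Benjamini-Hochberg over those genes with a threshold of 0.05. Single values were also compared by two-sided exact permutation tests. On simulated data (14390 genes, 200 changed by 2 on the log2 scale) the fit called 159 of the 200, all in the right direction, and 27 unchanged genes. The changed genes were drawn from those of higher level, and library sums were not made to differ between groups. The simulation therefore gives neither the power nor the error rate of the calls reported here. Named are the 9 factors, the targeted genes, up to 3 called genes per direction of each list with those at 0 that define it, and the 2 nearest patterns per factor; Sox21, Gata5, Hnf4g, Foxq1, Krt5, Muc5ac, Nkx6-3, Vil1, Barx1, Sox9, Bhlha15, Nkx2-2, Insm1, Gast and the liver genes highest in cancer 5 were named after their values were seen. The factors and lists were chosen with earlier results of these data known. Columns of per-sample values not used numbered 0. The protein comparison was not made, and some members of the lists are counted but not reported here by name.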

Additional observations from a re-analysis of the deposited data

Results flagged for a closer look

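The log2 ratio of Foxa3 over Foxa2 had a cancer far from the others. Cancer 2 was at 0.26 and cancers 1, 3, 4 and 5 between −1.04 and −0.78, so that the gap to the nearest cancer took 0.801 of the range of the group, above Dixon's limit for 5 samples at the 95% level. It was the only one of 12 measures examined to pass that limit, and chance alone gives about 0.6 such cases in 12. Without cancer 2 the difference between cancers and controls in this ratio was −2.05, compared with −1.81 with all libraries.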

How the results depend on the processing

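Of 169 values recomputed for single factors and ratios, 153 kept their direction and their side of the threshold. Part of this was fixed in advance, because the ratios could not cross the threshold under the replicate block. The threshold was applied to limma's adjusted p for factors (the exact p for Cdx2) and, for ratios, to p adjusted over the 3 pairs. Before that adjustment Foxa3 over Foxa2 ran from an exact permutation p of 0.029 to 0.057 and Foxa1 over Foxa2 from 0.029 to 0.190 on leaving out a library, and both were 0.25 under the replicate block, the smallest that 3 pairs allow. Centring on epithelial genes gave 2348 called genes in place of 4948, 0 factors in place of 4, weaker values for Gata4 (−0.74), Gata6 (−0.33) and Foxa3 (−0.39), and reversed signs for Sox2 (0.44), Foxa1 (0.71) and Hnf4a (0.011). TPM gave 7704 called genes, Hnf4a at −0.33 without a call, Foxa1 reversed to 0.39 and Foxa2 called at 1.09. The causes were not tested. Leaving out each library in turn gave 2548 to 5232 called genes (2548, 2700 and 2874 without controls 1, 2 and 3, where 2 controls remain) and 3 to 5 factors, with ranges of −2.22 to −1.92 for Gata4, −1.74 to −1.41 for Gata6, −1.86 to −1.49 for Foxa3, −1.43 to −1.17 for Hnf4a (not called without control 1), −0.69 to −0.51 for Foxa1 (called without cancer 4), −0.012 to 0.35 for Foxa2 (negative without control 2), −1.35 to −0.15 for Sox2 and 0.13 to 1.10 for Pdx1. No source used here says that the numbers 1 to 3 shared by cancers and controls pair the samples. Deviations from the group means correlated, between libraries of equal number, at −0.02, −0.19 and −0.10. With 3 controls these correlations cannot exclude a pairing. A fit with the replicate number as a block called 1534 genes and 0 factors (5 at an unadjusted p below 0.05), with Gata4 at −2.0 (adjusted p = 0.059 by limma), Gata6 at −1.80, Foxa3 at −1.58 and Hnf4a at −1.33; it leaves few degrees of freedom. Not run were Pdx1 and Cdx2 under a mean FPKM of at least 5 and Cdx2 under quantile normalization, eBayes without trend and the block, where they had no fitted value. Rounding limits Cdx2, whose levels span few steps, and the unknown depth prevents an upper limit for libraries at 0.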

Other observations

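Some genes known from the distal stomach, picked here after their values were seen, differed between the cancers. Nkx6-3, a homeobox gene of the antrum, was 55 in cancer 2 and 0 to 1 in the other cancers, Gast, which encodes the antral hormone gastrin, was 2032 there and 0 to 7 elsewhere among the cancers, and Pdx1, which also marks the antrum, was highest there at 14. In the controls Nkx6-3 was 0, Gast 0 to 5 and Pdx1 0 to 1. Cancer 1, with Pdx1 of 8, had Nkx6-3 at 0 and Gast at 7. Cancer 2 also had the highest Gata4, Foxa3 and Hnf4a of the 5 cancers and the highest sum of the gastric glandular markers (59944), but not the highest Gata6, Foxa1, Foxa2 or Sox2.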
